A study of Drosophila melanogaster with 2 samples.

Results

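The Iroquois complex holds 3 protein-coding genes on chromosome arm 3L of the Drosophila melanogaster genome, araucan (ara), caupolican (caup) and mirror (mirr), and the binding of Crooked legs (Crol) across them is described here. Every peak of the conservative list was taken whose summit, the base of highest signal, lay between 20 kb before ara and 20 kb after mirr. In the dm6 build this span runs from chr3L:12560672-12730249, or 169.6 kb, and it held 28 of the 9211 conservative peaks. The genes are taken by name and the peaks by position, and no signal enters that rule beyond the authors' threshold for the conservative list. The gene group itself was chosen with earlier results of these data known.

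Crol is a zinc finger protein encoded by an ecdysone-regulated gene. Its binding was mapped by chromatin immunoprecipitation and sequencing (ChIP-seq) in whole embryos aged 0 to 24 h, from transgenic flies that carry Crol fused to enhanced green fluorescent protein. The pull-down used an antibody to the fluorescent tag, although another label field names crol itself as the antibody. There was 1 group with 2 biological replicates and no second genotype or treatment, so all embryos carried the fusion. Signals from whole embryos sum over all cell types and ages present, so bound cells and strength of binding per cell cannot be told apart.

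The Iroquois genes encode homeodomain transcription factors of the TALE class. Their products help to set the prepattern of the notum, where they act upstream of the proneural genes achaete and scute, and to define the dorsal part of the eye and other territories of the body wall. The proteins of ara and caup are close relatives with largely overlapping roles, whereas mirr has roles of its own, among them in the eye and in the follicle cells of the ovary. The locus is also a known target of the Polycomb group.

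All 3 genes lie on the plus strand. In the Ensembl annotation, ara (FBgn0015904) runs from chr3L:12580672-12596018, caup (FBgn0015919) from chr3L:12609631-12621798 and mirr (FBgn0014343) from chr3L:12693639-12710249. Between caup and mirr lie 71.8 kb with 4 annotated long non-coding RNA genes, which are CR32111, CR43431, CR44553 and CR44552. The 5' end of sowah, a protein-coding gene on the minus strand, lies within the span upstream of ara.

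The sequences at 7 summits are shown first, since they are the promoter summits of the 3 genes and the 5 strongest peaks of the span, with the mirr promoter in both sets. Each holds the summit base and 50 bases on either side of it, given 5' to 3' on the plus strand of dm6 and read from the RefSeq copy of that assembly. Capitals mark every match, on either strand, to the G runs GGGGG and the longer GGGGGG, the GAGA factor letters GAGAG, the Pho core GCCAT, the nuclear receptor half-site AGGTCA, the Zelda letters CAGGTAG or the Iroquois letters ACANNTGT.
ara promoter, chr3L:12580212-12580312: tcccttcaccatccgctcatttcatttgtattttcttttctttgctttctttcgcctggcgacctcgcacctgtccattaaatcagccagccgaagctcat
ara intron, chr3L:12590908-12591008: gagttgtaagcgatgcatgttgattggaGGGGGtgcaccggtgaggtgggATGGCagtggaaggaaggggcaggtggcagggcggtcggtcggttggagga
caup promoter, chr3L:12609392-12609492: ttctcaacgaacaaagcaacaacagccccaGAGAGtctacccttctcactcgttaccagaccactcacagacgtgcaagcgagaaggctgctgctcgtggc
CR43431 promoter, chr3L:12653306-12653406: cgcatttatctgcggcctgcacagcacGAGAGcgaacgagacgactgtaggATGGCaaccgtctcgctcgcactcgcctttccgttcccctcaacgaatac
2795 bp upstream of mirr, chr3L:12690794-12690894: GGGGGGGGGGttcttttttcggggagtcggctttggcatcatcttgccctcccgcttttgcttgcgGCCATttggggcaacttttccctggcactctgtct
1267 bp upstream of mirr, chr3L:12692322-12692422: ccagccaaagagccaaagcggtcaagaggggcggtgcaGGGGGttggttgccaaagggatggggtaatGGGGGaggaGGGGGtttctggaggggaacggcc
mirr promoter, chr3L:12693110-12693210: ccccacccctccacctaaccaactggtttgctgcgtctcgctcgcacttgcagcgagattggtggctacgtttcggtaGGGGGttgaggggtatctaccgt
The window 2795 bp upstream of mirr opens with a long run of G, and the window 1267 bp upstream holds 3 separate runs of at least 5 G. The ara promoter window holds none of the searched letters. In the ara intron window, GCCAT lies on the minus strand from the summit base itself to 4 bp past it.

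Across the list as a whole, the depth of the libraries is unknown, because the values used here are peak lists without read counts. Peak signals are heights as the authors deposited them, on a scale that is not stated, and each comparison of signals stays within a single list. The score is the authors' rescaled irreproducible discovery rate (IDR), a measure of how well peak ranks repeat, with a highest value of 1000. With 28 peaks the span had 1.65 peaks per 10 kb, against 0.688 over the 6 chromosome arms, a ratio of 2.40. Windows of the same length placed every 10 kb along the arms held a median of 10 summits (quartiles 4 and 17, highest 64). Of 13289 such windows, 6.7% held at least 28 and 2061 held 0. Sequence without any peak is part of the arm length and of the windows, which lowers the 0.688, the median and the 6.7%. The span was therefore in the upper part of the range, and windows with more summits were found elsewhere. In the list ranked between replicates, before any threshold, the ratio was smaller. There the span had 10.4 peaks per 10 kb against 6.51 over the arms, a ratio of 1.59.

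**Figure D1:**
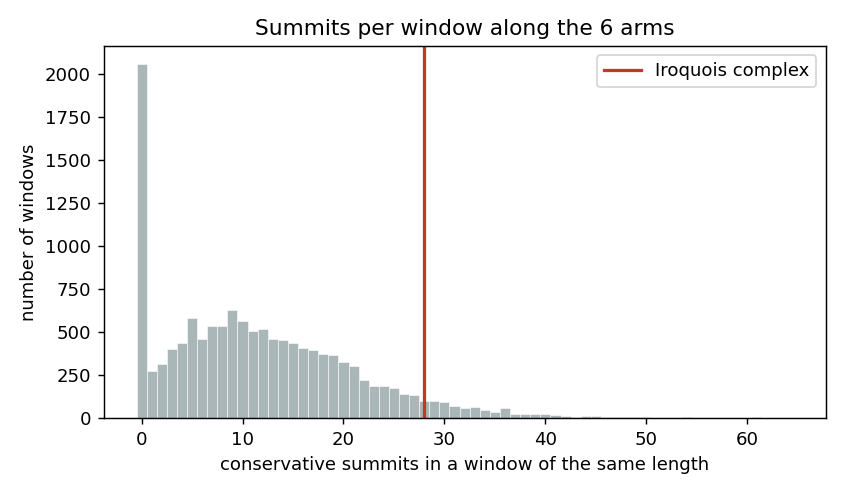
Number of windows (vertical axis) against the number of conservative summits they hold (horizontal axis), for windows as long as the Iroquois span placed every 10 kb along the 6 arms. The red line marks the 28 summits of the Iroquois span, against a median of 10.

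Signals of the 28 peaks ran from 52.1 to 1379.7, with a median of 134 (quartiles 83.1 and 234), and the whole conservative list a median of 113 (quartiles 78.6 and 191). Of the 28, 19 lay above the median of the whole list, 11 in its top 25% and 3 in its top 10%, which began at 353. These 3 were the mirr promoter peak, a peak 2795 bp upstream of mirr and a peak in an intron of ara. By annotation, 5 of the 28 summits were at promoters (within 500 bp of a transcription start site, TSS), against 2531 of all 9211 conservative summits. A further 8 lay in introns and 15 between genes, and 0 in exons. Whole-list counts of these other classes are not given. The 5 promoter peaks had a median signal of 234, the 8 intronic ones 143 and the 15 intergenic ones 124. Medians by class over the whole list are not given, so this order cannot be called particular to the span. The highest score of 1000 was reached by 24 of the 28 peaks, against 80.9% of all conservative peaks.

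**Figure D2:**
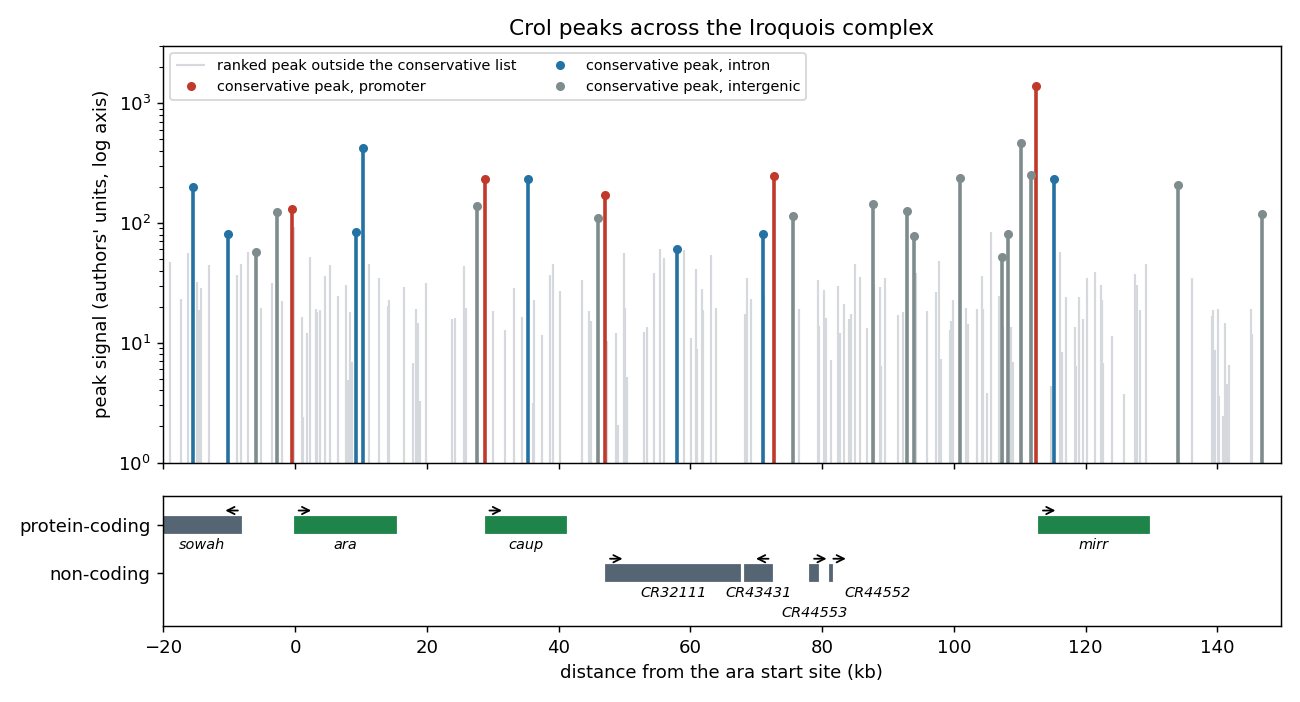
Upper panel, signal of each peak (log axis, authors' units) against the distance of its summit from the ara start site in kb; coloured stems with points are the 28 conservative peaks by annotation and thin grey stems the 148 weaker ranked peaks. Lower panel, genes with a start site in the span, the Iroquois genes in green, with arrows for the direction of transcription. The tallest stem is the mirr promoter peak at 1379.7, and 15 of the 28 conservative summits lie between caup and mirr.

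Promoter peaks were present at 3 of 3 Iroquois genes, and over all 13945 protein-coding genes at 15.5%. With a promoter window of 250 or 400 bp in place of 500 bp, only caup of the 3 had one in the conservative list. In the authors' optimal list, another thresholded list, ara also had a summit 200 bp from its TSS (signal 92.3, score 1000). The share of all genes with these narrower windows is not given. The member with the strongest signal was mirr. Its promoter peak, chr3L:12692891-12693374, had a signal of 1379.7 and a summit 479 bp upstream of the TSS. In replicate 1 the signal of this peak was 736 and in replicate 2 it was 649. Both replicates were thus far above every other peak of the span, where the next highest replicate values were 239.9 and 209. The mirr promoter peak ranked 40 among the 9211 conservative peaks and 15 among the 2156 protein-coding genes with a promoter peak. In the thresholded list of each replicate alone, the peak ranked 39 of 7813 in replicate 1 and 36 of 6138 in replicate 2. It was 2.99 times the second peak of the span and 10.6 times the median of the other 27, which was 131, and it made up 23.6% of the summed signal.

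The promoter peak of caup, chr3L:12609237-12609646, had a signal of 234 and a summit 189 bp upstream of the TSS. Replicate 1 gave 141 and replicate 2 gave 96.3. That of ara, chr3L:12580057-12580466, had a signal of 131 and a summit 410 bp upstream of the TSS. Here replicate 1 gave 59.8 and replicate 2 gave 72.0, the opposite order to the other 2 promoters. Among the 2156 protein-coding genes with a promoter peak, whose median was 142, caup ranked 607 and ara 1164. The order of the 3 promoters was mirr, caup, ara in both replicates. For mirr and caup the replicate values do not overlap those of the next gene, since the lower caup value of 96.3 is above the higher ara value of 72.0.

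By promoter signal in this list, the protein-coding genes next to mirr were HDAC6 (1413) and CG11658 (1409) above it and tup (1364) and C3G (1349.8) below. Next to caup stood CG44094 and stumps, which share a peak of 235, and below it insb (234) and CG9782 (234). Next to ara stood X11Lbeta (131) and Tet (131), and below it CG3792 and Gmd, which share a peak of 130.4. These neighbours are close in signal only.

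All 5 promoter summits of the span lay upstream of their TSS. Over all 2531 conservative promoter summits, 56.3% did. The other 2 were those of long non-coding RNA genes between caup and mirr. The peak at CR43431, chr3L:12653151-12653560, had a signal of 248, 149 in replicate 1 and 100.1 in replicate 2, with its summit 266 bp upstream. The peak at CR32111, chr3L:12627680-12627823, had a signal of 170.1, 88.2 in replicate 1 and 81.9 in replicate 2, with its summit 150 bp upstream. Promoter peaks were thus found at 2 of the 4 long non-coding RNA genes, and over all 3261 genes annotated as non-coding RNA at 11.1%. Neither CR44553 nor CR44552 had one, and their nearest summit, at 115, lay 2595 and 5518 bp upstream. For sowah the nearest summit was 2113 bp inside the gene.

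Around mirr, 6 summits fell within 10 kb of the TSS, 5 of them upstream and 1 in an intron, over a stretch of 7929 bp. Over all protein-coding genes, the median number of summits within 10 kb was 1, and 3.81% had at least 6. Moving upstream from the promoter peak, chr3L:12692263-12692488 had a signal of 253, with 123 in replicate 1 and 137 in replicate 2, 1267 bp from the TSS. The peak chr3L:12690674-12691043, 2795 bp upstream, was the second strongest of the span at 462, with 239.9 in replicate 1 and 205 in replicate 2. Its window opens with the G run shown above.

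The next 2 peaks upstream were weak. The summit 4816 bp upstream, in chr3L:12688618-12689027, had a signal of 80.7, with 32.3 in replicate 1 and 39.6 in replicate 2. The summit 5657 bp upstream, in chr3L:12687777-12688186, had 52.1, the lowest of the 28, with 30.4 in replicate 1 and 31.9 in replicate 2. Both were absent from the thresholded list of each replicate alone, and their scores were 947 and 860. Downstream of the TSS, the intronic peak chr3L:12695875-12695990 had a signal of 232, with 148 in replicate 1 and 92.1 in replicate 2, 2272 bp into the gene. It was the sole conservative peak in the 16.6 kb of the mirr gene body.

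**Figure D3:**
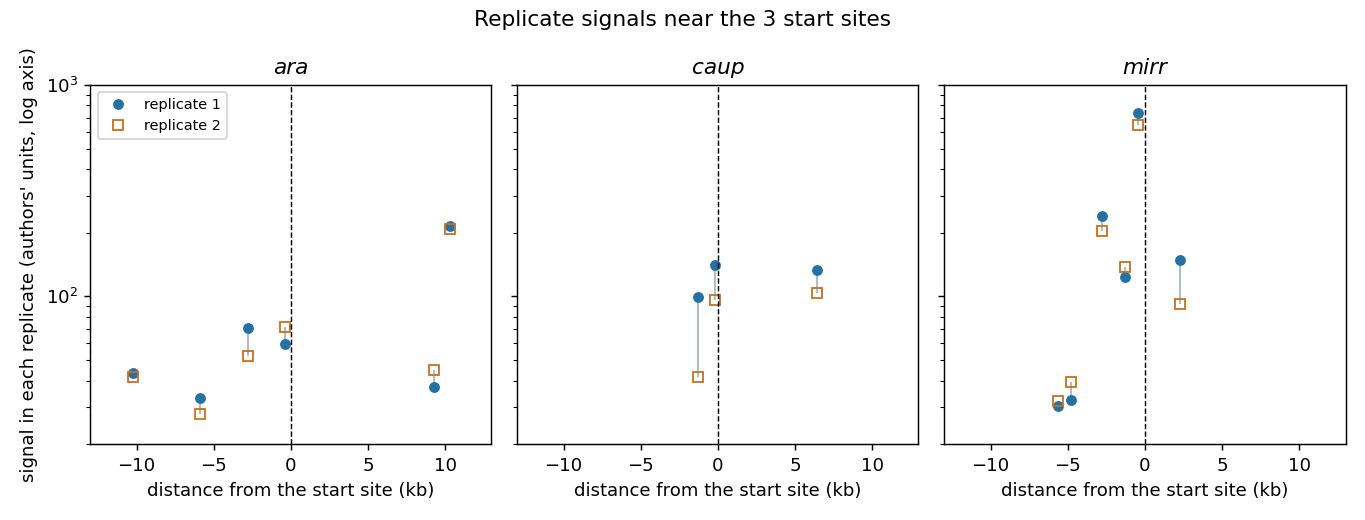
Signal in replicate 1 (filled circles) and replicate 2 (open squares) of each conservative peak within 12 kb of the TSS of ara, caup and mirr, on a log axis in the authors' units, against distance from the TSS in kb (negative is upstream). The mirr promoter values of 736 and 649 stand above all others, and the ara intron peak (216 and 209) exceeds the ara promoter peak (59.8 and 72.0).

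Around ara, 4 summits lay within 10 kb of the TSS, and 12.5% of all protein-coding genes had at least 4. The strongest peak of the gene was not among them. It lay in an intron 10286 bp into the gene, chr3L:12590744-12591110, with a signal of 420.4, or 216 in replicate 1 and 209 in replicate 2. This intronic peak ranked 686 in the whole list, whereas the ara promoter peak ranked 3873. A second intronic peak lay 1040 bp before it, chr3L:12589713-12590122, with 83.9, or 37.1 in replicate 1 and 44.9 in replicate 2. Upstream of the promoter, chr3L:12577661-12578070 had a signal of 124, with 70.9 in replicate 1 and 52.4 in replicate 2, 2806 bp from the TSS. The intergenic peak chr3L:12574570-12574979, nearer to the TSS of sowah, had 57.1, with 33 in replicate 1 and 27.8 in replicate 2, and the lowest score of the 28 at 839.

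Around caup, 3 summits lay within 10 kb of the TSS, and 22.1% of all protein-coding genes had at least 3. A peak 1307 bp upstream, chr3L:12608119-12608528, had a signal of 137.5, with 98.9 in replicate 1 and 41.8 in replicate 2. This was the largest difference between replicates in the span, a factor of 2.37. The intronic peak 6447 bp into caup, chr3L:12615939-12616106, had a signal of 234.06, almost that of the promoter peak (234.21), with 134 in replicate 1 and 103 in replicate 2.

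Between caup and mirr lay 15 summits, or 2.09 per 10 kb, with the mirr promoter and its upstream peaks among them. The 20 kb before ara had 2.5 per 10 kb, the stretch from ara to caup 1.47 and the 20 kb after mirr 1. The ara, caup and mirr gene bodies had 1.30, 0.822 and 0.602 per 10 kb. In the ranked list before any threshold the order was another one, with 13.03 per 10 kb in ara, 12.04 in mirr, 11.1 between caup and mirr and 9.5 before ara. Some ranked peaks share a replicate peak, so these are not densities of separate sites. The strongest of the interval apart from those near mirr and the CR43431 promoter was chr3L:12681341-12681750, 12093 bp upstream of mirr, with 239. Its signal was 152 in replicate 1 and 80.6 in replicate 2. The intergenic peak chr3L:12668203-12668612 had 144, or 89.6 in replicate 1 and 57.3 in replicate 2. Both lie in sequence without an annotated gene.

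The remaining summits of the interval were of moderate or low signal. The peak chr3L:12626499-12626908, 1230 bp upstream of CR32111, had 111, with 52.7 in replicate 1 and 55.9 in replicate 2. Within CR32111, an intronic peak at chr3L:12638465-12638874 had 61.0, with 35.2 and 29.5. Within CR43431, an intronic peak at chr3L:12651466-12651875 had 80.8, with 42.2 and 42.7. In these 3 peaks the replicates were close, and neither replicate was the higher one throughout. Upstream of CR44553, chr3L:12656103-12656512 had 115, with 58.6 in replicate 1 and 45.9 in replicate 2. A neighbouring pair farther on, chr3L:12673393-12673802 and chr3L:12674432-12674841, had 125 and 77.9. The first of the pair had 65.8 in replicate 1 and 59.4 in replicate 2, and the second had 51.2 and 36.5. The replicate summits paired with the second lay 187 bp apart, the largest shift among the 28, whose median was 14 bp. Its replicate 2 peak was also paired with the adjacent weaker ranked peak chr3L:12674646-12675055, so this need not be the shift of a single summit.

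At the edges of the span, 2 peaks lay in introns of sowah. The peak chr3L:12564948-12565357 had a signal of 201, with 109 in replicate 1 and 88.4 in replicate 2. The peak chr3L:12570224-12570633 had 80.5, with 43.5 in replicate 1 and 41.5 in replicate 2. Beyond mirr, where the nearest TSS is that of SmD1, chr3L:12714557-12714966 had 206, with 113 and 86.8. The last, chr3L:12727198-12727607, had 118, with 79.0 in replicate 1 and 39.1 in replicate 2. No summit lay in the 18851 bp between the mirr intron peak and the first of these, the widest gap of the span, against a median gap of 4346 bp.

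Between replicates, 21 of the 28 peaks were higher in replicate 1 and 7 in replicate 2. Over the conservative list 74.1% were higher in replicate 1. The ratio of replicate 1 to replicate 2 had a median of 1.19 in the span (range 0.815 to 2.37) and 1.21 over the whole list. The 7 that were higher in replicate 2 include the ara promoter, the weaker ara intron peak and 3 of the peaks upstream of mirr. Of the 28 peaks, 20 overlapped a thresholded peak of each replicate alone, against 57.1% of the conservative list. A further 3 overlapped a thresholded peak of replicate 1 alone, 1 did so in replicate 2 alone, and 4 in neither.

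**Figure D4:**
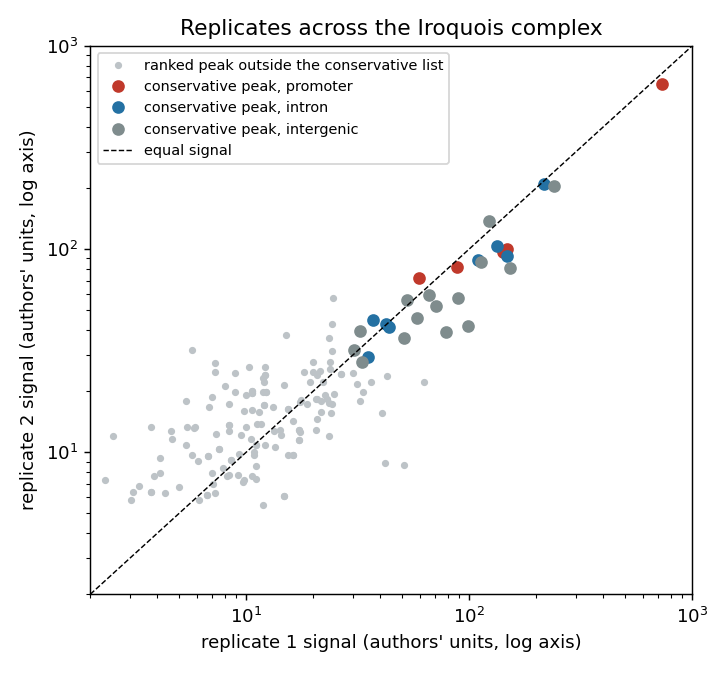
Signal in replicate 2 against signal in replicate 1 (both log axes, authors' units) for the 28 conservative peaks of the span, coloured by annotation, and its 148 weaker ranked peaks in grey. Most coloured points, 21 of 28, lie below the dashed line of equal signal, and the mirr promoter peak stands alone at the upper right. Some ranked peaks share a replicate peak, so not every grey point is a separate site.

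The ranked list between replicates, before any threshold, had 148 further peaks in the span, with a median signal of 19.3 (range 2.07 to 92.3). Some were paired with the same replicate peak as another of them or as a conservative peak, so they are not 148 separate sites. Of these, 9 had a signal above the weakest conservative peak. The strongest was a further summit at the ara promoter, 200 bp upstream of the TSS, with 92.3 and a score of 467. The optimal list also holds this peak, there with a score of 1000. It had 63.1 in replicate 1 and 22.3 in replicate 2. In replicate 1 its summit lay 110 bp upstream of the TSS. The next, 7296 bp upstream of mirr, had 84.5 and was higher in replicate 2 (57.35) than in replicate 1 (24.6). In introns of CR32111 lay peaks of 60.1 (42.6 and 23.7) and 59.4 (24.7 and 19.3). The fifth, in a coding exon of mirr, had 57.6 (36.2 and 22.1).

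The letters at the summits were compared with those at all conservative summits and at windows placed every 10 kb along the arms. Each window holds 50 bases on either side of its centre, and a match describes letters, not a site. The run GGGGGG was present at 10 of 28 summits of the span, or 35.7% (exact Clopper-Pearson 95% interval 18.6 to 55.9, which covers counting of peaks only), at 30.3% of all conservative summits and in 1.84% of the placed windows. The shorter run GGGGG, which contains it, was present at 17 of 28, or 60.7%, at 53.1% of all summits and in 7.15% of the placed windows. By annotation, GGGGG was present at 7 of the 8 intronic summits, 8 of the 15 intergenic ones and 2 of the 5 promoter ones. Shares with GGGGG by annotation over the whole list are not given, so these counts cannot be called particular to the span. The median GC content was 56.9% in the span, 53.5% at all summits and 42.6% in the placed windows.

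Letters of known factors were read in the same windows. The core of the Polycomb recruiter Pho, GCCAT, was present at 9 of 28 summits, or 32.1% (15.9 to 52.4), at 19% of all summits and in 19.9% of the placed windows. The GAGA factor letters GAGAG were present at 5, or 17.9%, against 25.9% and 12.1%. The letters bound by Iroquois proteins themselves, ACANNTGT, and those of the early activator Zelda, CAGGTAG, were each present at 1 of 28. The share of all summits was 3.51% for ACANNTGT and 0.543% for CAGGTAG. The nuclear receptor half-site AGGTCA was present at 0 of 28 (interval up to 12.3%) and at 2.03% of all summits.

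Genes that act with the Iroquois complex were read in the same list. Of 20 genes reported upstream of it, 6 had a promoter peak, or 30% (11.9 to 54.3), against the 15.5% of all protein-coding genes given above. The interval covers counting of genes only. It is no test against that share, since the genes were picked with earlier results of these data known. The count was 10 without replicate 2 and 11 with a promoter window of 1000 bp. The 15.5% does not apply to these 2 counts, and the share of all genes at those settings is not given. The 6 were tup, a LIM-homeodomain factor (1364), brk, a repressor of Dpp targets (649.7), en, a homeodomain factor (431), pnr, a GATA factor (121), wg, a Wnt ligand (104), and upd1, a ligand of the JAK/STAT pathway (82.4). From 2 kb upstream to the gene end, 16 of the 20 held at least 1 summit, against 28.4% of all protein-coding genes. The cofactor gene of Pnr, ush, held 23, and the receptor genes Egfr and N held 9 and 8. None was found at ci, grk, kni or hop. Within that stretch the strongest peak was 663 at Egfr, 439.8 at dpp, 195 at N and 179.9 at hh, receptor and ligand genes without a promoter peak. The counts of 23, 9 and 8 were picked after they were seen, and gene length was not matched. The spread of such counts over all protein-coding genes is not given, so they cannot be called unusual.

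Of 14 genes reported downstream of Iroquois proteins or acting with them, 6 had a promoter peak, or 42.9% (17.7 to 71.1), against the same 15.5%. Here too the interval covers counting of genes only and is no test, for the same reason. The count was 2 of 14 without replicate 1, a setting for which the share of all genes is not given. The 6 were CycE, a cyclin (607), kn, a COE-family factor (218), eyg, a Pax-family factor (195), rho, a protease that activates ligands of the EGF receptor (101.2), emc, an inhibitor of proneural proteins (85.1), and fng, which modifies Notch (64.2). From 2 kb upstream to the gene end, 9 of the 14 held at least 1 summit, against the 28.4% of all protein-coding genes. The proneural genes ac and sc had 0 there, as did pip, fj and Cdk2. Of the 4 further genes of the TALE class, hth had a promoter peak of 122 and 32 summits in the gene with its 2 kb upstream, and exd, achi and vis had 0. Gene length was not matched in these counts, and the spread of summit counts over all protein-coding genes is not given.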

How the data were processed

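ChIP-seq peak lists on dm6 from 2 biological replicates were used, per the labels. The authors' deposited lists give a signal (peak height, scaling not stated) and a score (rescaled IDR), per the file notes and the values. Which aligner and which peak caller made them is not given in the sources used here. A control experiment that the labels name was not analysed here. The conservative list was the main one. Replicate signals came from the list ranked between replicates. Which of its columns holds which replicate was settled by exact matches of interval, summit and signal with each replicate's own ranked list: of 87125 peaks, 78.2% of the first column matched replicate 1 and 0 replicate 2, and 64.5% of the second matched replicate 2 and 0 replicate 1. Genes came from Ensembl release 115, and sequence from the RefSeq copy of the same assembly. A promoter peak has its summit within 500 bp of any annotated TSS.

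No test was run, since there is 1 group and peaks are not replicates. Members and gene lists were chosen with earlier results of these data known. Named were every conservative peak of the span, the 5 strongest weaker peaks, up to 6 listed genes by promoter signal, the 2 genes next above and below each member, and up to 5 windows with the most summits. Other genes named for their summit counts, and the 400 bp promoter window, were chosen after their values were seen. The promoter assignment was tested on simulated data. Alternatives were other lists, each replicate alone, other margins, promoter windows and motif lengths. Python 3.11.15, numpy 2.4.6, pandas 2.3.3, scipy 1.17.1 and matplotlib 3.10.9 were used.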

Additional observations from a re-analysis of the deposited data

How the results depend on the processing

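The 28 peaks became 43 in the ranked list at a score of at least 540, and ranged from 23 to 27 with each replicate left out. Peaks per 10 kb ranged from 1.36 to 1.59 with a replicate left out, and were 1.89 in the optimal list, 1.42 at the highest score, 2.54 at a score of at least 540 and 1.38 with 40 kb on either side. The median signal was 124 in the optimal list, 157 at the highest score, 83.9 at a score of at least 540, and 80.6 to 88.2 in single replicates. The strongest signal was 649 to 736 in single replicates, which are on their own scale. In the conservative list, promoter peaks of the members fell from 3 to 1 with a window of 250 bp or, chosen after seeing the data, 400 bp. The 1 left was that of caup, since the other 2 conservative summits lie farther out. Regulators with a promoter peak ranged from 6 to 10 with a replicate left out (10 without replicate 2) and were 11 with 1000 bp. Downstream genes ranged from 2 to 7 (2 without replicate 1), and TALE genes fell to 0 with 250 bp. Shares of all genes at these other settings are not given. The share with G runs was 60.7% for GGGGG. The other 40 values were counts within 1.5 times the main count, densities and signals that moved by less than the spread between replicates, or a share within its interval, so 1 change can be within the limit as a count and past it as a density. No paired analysis was possible because there is 1 group. Depth is unknown, so weak peaks cannot be weighed by read number.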

Other observations

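Of the 5 promoter windows of the span, 3 share a stretch of letters. Among the 12-base stretches of the mirr promoter window, tctcgctcgcac (chr3L:12693145-12693156, plus strand) was the one matched in the most promoter windows of the span, allowing 1 mismatch. The CR43431 promoter window holds the same letters (chr3L:12653367-12653378, plus strand), and the caup promoter window holds tctcgcttgcac on the minus strand (chr3L:12609464-12609475). The ara and CR32111 promoter windows do not hold it. The exact stretch was present at 31 of all 9211 conservative summits, or 0.337%, which had a median signal of 201. It was present in 0.0224% of windows placed every 10 kb and in 0.0583% of windows of the same length centred 250 bp upstream of annotated start sites. With 1 mismatch allowed, the shares were 1.44% of all conservative summits, 2.37% of promoter summits, 1.09% of the other summits, 0.142% of the placed windows and 0.263% of the windows upstream of start sites. The stretch was picked after the sequences were seen and chosen for its repeats within the span, so its count there is no finding. Whether Crol binds it was not tested.

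From 20 to 40 kb outside the outer genes, just past the span, 1 conservative summit lay on the side of ara, in an intron of sowah with a signal of 72.7, and 0 on the side of mirr. The optimal list held 32 peaks in the span, of which 6 were not in the conservative list, while 2 conservative peaks were not in the optimal list. Elsewhere, the windows of the same length with the most summits that do not overlap are labelled by 1 protein-coding gene each. They were those of sbb (64), CG43245 (61), plh (61), Hipk (60) and Psc (58). The names are labels of position only, since CG43245 for one is 1475 bp long.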
